A study of Mus musculus with 2 samples.

Results

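Dendritic epidermal T cells (DETCs) that held transcripts of the γ chain genes Trgv2 and Tcrg-C2 numbered 855 of 8489 DETCs, 294 of 3544 in the library from isotype-treated mice and 561 of 4945 in the library from Skint1 antibody-treated mice. They were chosen from the counts themselves. A DETC was a barcode with 500 to 2500 genes, at most 12% mitochondrial UMIs (unique molecular identifiers, the tags that count mRNA molecules), 3 or more UMIs of Trdc, 3 or more of Cd3d, Cd3e and Cd3g together, and no UMI of Trac, Cd4, Cd8a or Cd8b1. A member had 3 or more UMIs of Trgv2 and Tcrg-C2 together. Across genes, members were set beside the DETCs of the same library that had 0 UMIs of both genes and at least 3000 UMIs in all, here called 0-UMI DETCs, which came to 2000 isotype cells and 2112 Skint1 antibody cells.

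Both libraries were made from ear epidermis of wild-type FVB/NJ female mice, 8 weeks old, taken 7 d after an intradermal injection of isotype control antibody or of antibody against Skint1, a protein of epithelial cells that DETCs need for their development in the thymus. The sort kept live cells of the phenotype CD45+EpCAM-MHC-II-, so the sort took no T cell receptor into account, and the study's legend gives n as 1 per group, where n counts mice by default. Each treatment had 1 library, so treatment and library cannot be told apart and no test between treatments was made. The libraries held 27272211 and 32450957 UMIs, and 4242 and 5961 barcodes kept as cells. The 8489 DETCs had a median depth of 4027.5 UMIs (isotype) and 3577 UMIs (Skint1 antibody). Among barcodes kept as cells, 5 occurred in both libraries, 3 of them as DETCs and 0 as members. A level is the sum of a gene's UMIs over a group of cells, scaled to 1000000 UMIs in all (CPM). Values in parentheses after a level, ratio or share are 95% intervals, which cover counting error only and not differences between mice.

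A γδ T cell receptor joins 1 γ chain to 1 δ chain. The mouse γ locus is built of clusters, each with its own joining and constant segments, and the canonical receptor of DETCs uses Tcrg-V5 with Tcrg-C1 for the γ chain and Trdv4 for the δ chain. Trgv2, Trgj2 and Tcrg-C2 form another cluster, which lies in the opposite orientation to the Tcrg-C1 cluster. T cells can transcribe and rearrange more than 1 γ cluster, so RNA of a segment does not by itself show a surface receptor.

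The genes that chose these cells have close relatives, and the stretches below show how few bases tell them apart. On GRCm38, Tcrg-C2 (ENSMUSG00000076752) lies at chr13:19304649-19307551 on the minus strand, Tcrg-C1 at chr13:19214103-19217024 and Tcrg-C4 at chr13:19344558-19352756, both on the plus strand. The coding part of the last exon, 140 bases in each gene, is printed from the GENCODE vM21 transcripts for Tcrg-C2 (chr13:19305063-19305202, minus strand), Tcrg-C1 (chr13:19216476-19216615, plus strand) and Tcrg-C4 (chr13:19352201-19352340, plus strand). Capitals mark bases that differ from Tcrg-C2.
Tcrg-C2: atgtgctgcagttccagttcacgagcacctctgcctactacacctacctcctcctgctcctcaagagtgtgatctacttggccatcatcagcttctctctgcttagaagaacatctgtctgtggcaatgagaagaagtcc
Tcrg-C1: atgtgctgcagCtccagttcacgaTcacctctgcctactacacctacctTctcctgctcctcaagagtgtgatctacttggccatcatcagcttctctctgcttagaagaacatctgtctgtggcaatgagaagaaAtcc
Tcrg-C4: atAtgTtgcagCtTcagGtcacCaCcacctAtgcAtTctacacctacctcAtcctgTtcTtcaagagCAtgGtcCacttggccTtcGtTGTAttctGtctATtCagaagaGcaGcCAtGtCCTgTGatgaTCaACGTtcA
Tcrg-C1 differed from Tcrg-C2 at 4 of these 140 bases, whereas Tcrg-C4 differed at 44. Over the whole last exon, Tcrg-C2 and Tcrg-C1 were 94.2% identical, with 32 differences in an alignment of 554 positions and a longest identical run of 104 bases.

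Trgv2 (ENSMUSG00000076754) lies at chr13:19336573-19337167 on the minus strand. Its closest relatives were Tcrg-V1, with 15 differences over 307 aligned positions of the coding part of the second exon, and Tcrg-V3, with 17. The first 120 bases of that exon are printed for Trgv2 (chr13:19336760-19336879, minus strand), Tcrg-V1 (chr13:19340151-19340270, plus strand) and Tcrg-V3 (chr13:19242995-19243114, plus strand), with capitals at bases that differ from Trgv2.
Trgv2: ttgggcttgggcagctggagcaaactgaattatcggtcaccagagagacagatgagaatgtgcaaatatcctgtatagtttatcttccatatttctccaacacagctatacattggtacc
Tcrg-V1: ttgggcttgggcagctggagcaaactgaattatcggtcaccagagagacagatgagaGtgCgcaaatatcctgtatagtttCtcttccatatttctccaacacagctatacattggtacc
Tcrg-V3: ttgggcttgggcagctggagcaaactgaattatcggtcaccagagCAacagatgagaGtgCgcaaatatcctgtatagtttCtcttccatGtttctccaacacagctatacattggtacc
Tcrg-V1 differed at 3 of these bases and Tcrg-V3 at 6. The longest identical run in that part was 57 bases with Tcrg-V1 and 55 with Tcrg-V3. A read that lies within an identical run cannot be given to 1 gene, so the split of UMIs between Tcrg-C2 and Tcrg-C1 is uncertain, and that between Trgv2 and Tcrg-V1 rests on few bases. The reference sequence is that of C57BL/6J, not of FVB/NJ. How many reads this moved was not tested.

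In the isotype library, 2494 DETCs had 0 UMIs of Trgv2 and Tcrg-C2, 488 had 1, 268 had 2 and 137 had 3. In the Skint1 antibody library the same classes held 3065, 850, 469 and 263 cells. The numbers fell steadily through the threshold in both libraries, with no gap between members and other DETCs. Just inside it were the cells with 3 UMIs, which made up 46.6% of the isotype members and 46.9% of the Skint1 antibody members, and just outside it those with 2. The highest cell had 10 UMIs among isotype DETCs and 14 among Skint1 antibody DETCs.

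**Figure D1:**
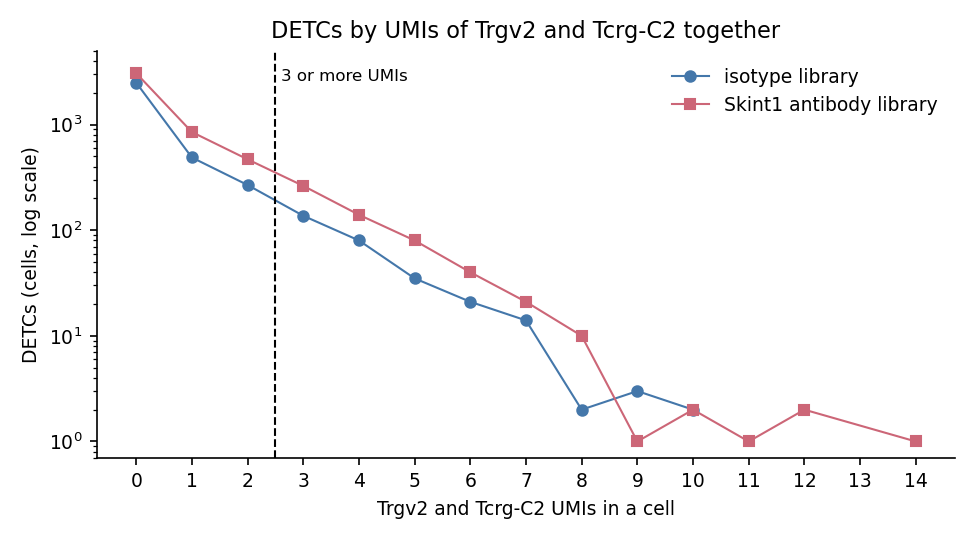
Number of DETCs (log scale) by their UMIs of Trgv2 and Tcrg-C2 together, in the isotype library (circles) and the Skint1 antibody library (squares), with classes of 0 cells left out and a dashed line at the threshold of 3 UMIs. Cell numbers decline without a gap, from 2494 and 3065 cells at 0 UMIs to 137 and 263 at 3.

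Both genes were usually present together. Of the members, 242 of the isotype library (82.3%) and 447 after Skint1 antibody (79.7%) held 1 or more UMIs of each, 29 and 58 had Trgv2 only, and 23 and 56 had Tcrg-C2 only. The rule favours cells with both, so co-detection was also taken over all DETCs thinned to 3000 UMIs, leaving out 640 and 1355 shallower cells. There, Tcrg-C2 was found in 42.5% (38.1 to 47.1) of isotype DETCs with a Trgv2 UMI and in 11.4% (10.1 to 12.7) of those without. In the Skint1 antibody library the shares were 48.8% (45.2 to 52.3) and 16.9% (15.5 to 18.3). Before thinning they were 54.4% against 11.9% and 53.4% against 17.5%. In both libraries, then, cells with a transcript of 1 gene of the cluster more often held the other.

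Trgv2 and Tcrg-C2 were also counted in nearly equal numbers. Over all DETCs, 1114 UMIs of Trgv2 and 1103 of Tcrg-C2 were found in the isotype library, and 2025 and 2057 in the Skint1 antibody library. The other pairs of a variable and a constant gene gave few variable gene UMIs. For every 100 UMIs of Tcrg-C1 there were 5.73 of Tcrg-V5 among isotype DETCs and 5.71 among Skint1 antibody DETCs, and for every 100 of Trdc there were 20.9 and 20.5 of Trdv4. For every 100 of Tcrg-C2 there were 101 and 98.4 of Trgv2. These are ratios of UMIs from 3′ ends, which do not scale with transcript length. The ratio among members, which the rule shapes, was 107 and 105.

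Members made up 8.30% (7.41 to 9.25) of isotype DETCs and 11.3% (10.5 to 12.3) of Skint1 antibody DETCs, a difference of 3.05 percentage points (1.77 to 4.31). The Skint1 antibody DETCs were shallower, and with cells thinned to 3000 UMIs, which left 2904 and 3590 DETCs after the 640 and 1355 shallower ones were dropped, the shares with 3 or more UMIs were 4.34% (3.63 to 5.14) and 7.83% (6.97 to 8.75), a difference of 3.49 percentage points, interval 2.33 to 4.64. The share was thus higher in the Skint1 antibody library at both depths. Over all DETCs, Trgv2 stood at 76.0 CPM (71.6 to 80.6) with isotype and 108 CPM (104 to 113) with Skint1 antibody, and Tcrg-C2 at 75.2 (70.9 to 79.8) and 110 CPM (105 to 115). Without a second library per treatment, the spread between mice behind these differences is unknown.

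Other cells and free RNA gave the background. Among cells with 3 or more Trac UMIs and no Trdc, the αβ-type cells, 7 of 63 (11.1%, 4.59 to 21.6) of the isotype library held at least 1 UMI of the pair and 3 of 44 (6.82%, 1.43 to 18.7) after Skint1 antibody, at median depths of 3894 and 3756 UMIs. Among DETCs these shares were 29.6% (28.1 to 31.2) and 38.0% (36.7 to 39.4), above the αβ-type cells in both libraries. At the members' threshold of 3 or more UMIs the αβ-type share was 2 of 63 (3.17%, 0.387 to 11.002) with isotype, an interval that overlaps the 8.30% (7.41 to 9.25) of DETCs, and 0 of 44 with Skint1 antibody, which allows up to 8.04%, below the 11.3% (10.5 to 12.3) of DETCs. Of cells with no UMI of the CD3 genes, Trac or Trdc, 2 of 36 and 1 of 75 held the pair, with 0 at 3 or more UMIs. The level in barcodes with 1 to 100 UMIs, which hold mostly free RNA, was 17.5 and 26.9 CPM for Trgv2 and 40.1 and 62.0 CPM for Tcrg-C2. Tcrg-C1 stood there at 525 and 544 CPM, and Trdc at 2228 and 1895 CPM. Cells with Trdc and 3 or more UMIs of IL-17-type γδ genes also held the pair, in 21 of 65 cells (32.3%) and 25 of 59 (42.4%), and 3 and 10 of them had 3 or more UMIs. The DETC rule does not set these cells apart, as 45 of the 65 and 46 of the 59 passed it, and 3 isotype members and 7 Skint1 antibody members were among them.

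The γ chain genes of the canonical DETC receptor, Tcrg-C1 and Tcrg-V5, were present in members at close to the level in 0-UMI DETCs. Tcrg-C1, the constant segment of the DETC γ chain, stood at 1048 CPM (995 to 1103) in isotype members and 1027 (1006 to 1048) in isotype 0-UMI DETCs, for a log2 ratio of 0.03 (-0.05 to 0.11). After Skint1 antibody it stood at 1081 (1041 to 1122) and 1099 CPM (1078 to 1121), a log2 ratio of -0.02 (-0.09 to 0.04). Tcrg-C1 was detected in 95.2% and 96.4% of members, against 96.3% and 96.5% of 0-UMI DETCs. Tcrg-V5, its variable segment, was at 62.0 against 60.3 CPM and at 65.0 against 62.9 CPM. As counted, members held 39.2 and 40.7 UMIs of Tcrg-C2 for every 100 of Tcrg-C1, a ratio that the rule shapes. Over all DETCs it was 7.31 and 10.0, and the split of UMIs between these relatives is uncertain throughout.

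Among the remaining γ genes, Tcrg-C4, the constant segment of the cluster next to Trgv2, was at 196 against 222 CPM with isotype and 231 against 240 CPM with Skint1 antibody, members first. Tcrg-V1, the variable segment closest in sequence to Trgv2, was at 20.7 against 19.5 CPM and 26.4 against 22.4 CPM. Tcrg-V4, found in γδ T cells of the dermis and lymph nodes, had 11 UMIs in isotype members (7.84 CPM, 3.91 to 14.0) against 2.68 CPM (1.72 to 3.99), and 24 in Skint1 antibody members (9.46 CPM, 6.06 to 14.1) against 4.52 CPM (3.23 to 6.16). Tcrg-V6, used by IL-17-producing γδ T cells, was at 4.27 against 2.12 CPM and 3.94 against 4.86 CPM, with overlapping intervals. Tcrg-V7, used by γδ T cells of the gut epithelium, had 17 UMIs in isotype members (12.1 CPM, 7.05 to 19.4) against 0.558 CPM (0.181 to 1.30), but 3 UMIs in Skint1 antibody members (1.18 CPM, 0.244 to 3.45) against 0.565 CPM. Tcrg-C3 had 1 UMI in the members of each library and Tcrg-V3 had 0, which allows up to 2.63 and 1.45 CPM. The joining segments Trgj1, Trgj2 and Trgj4 had no UMI in members.

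The δ chain genes were lower in members in both libraries. Trdc, the constant segment, was at 4167 CPM against 4766 in the isotype library (log2 ratio -0.19, -0.23 to -0.15) and at 3590 against 3929 in the Skint1 antibody library (-0.13, -0.16 to -0.10). Trdv4, the variable segment of the canonical receptor, was at 832 against 1020 CPM (-0.29, -0.38 to -0.21) and at 719 against 831 CPM (-0.21, -0.28 to -0.13). Set beside 0-UMI DETCs with at least 5000 UMIs, which are deeper than most members, the Trdv4 ratio was -0.19 and -0.09. With 0-UMI DETCs weighted to the members' depth it was -0.25 and -0.17. Trdv1, Trdv2-1, Trdv2-2, Trdv3 and Trdv5 had 0 to 2 UMIs each in members.

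**Figure D2:**
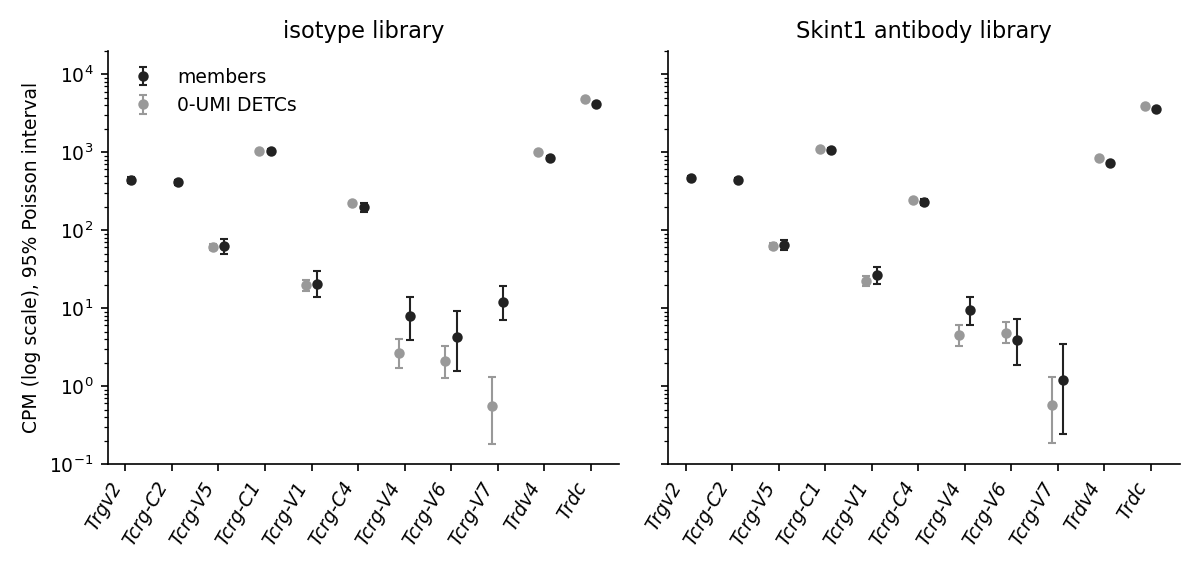
CPM (log scale) of 11 γ and δ chain genes in members (black) and 0-UMI DETCs (grey), with 95% Poisson intervals, for each library. Genes with 0 UMIs in a group have no point. Tcrg-C1 stood at 1048 and 1081 CPM in members beside 1027 and 1099 CPM in 0-UMI DETCs, while Tcrg-V7 was at 12.1 CPM in isotype members and 0.558 CPM in the 0-UMI DETCs.

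No Trdv4 UMI was found in 56 of 294 isotype members and 109 of 561 Skint1 antibody members. With cells of at least 3000 UMIs thinned to that depth, 21.0% (16.3 to 26.3) of isotype members lacked Trdv4 against 10.6% (9.28 to 12.03) of 0-UMI DETCs, or 10.4 percentage points more (5.72 to 15.7). The Skint1 antibody library gave 26.2% (22.3 to 30.3) against 15.5% (14.0 to 17.1), or 10.6 points more (6.62 to 14.95). As counted in the same cells, without thinning, the differences were 12.7 points (8.36 to 17.9) and 6.24 points (2.81 to 10.07). The share without Trdv4 was thus higher in members in both libraries, by more than the counting error. Cells with 1 UMI of the pair, which are not members, lacked Trdv4 in 20.3% and 18.1%, so in the isotype library the share was already at the members' level at 1 UMI.

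In several receptor genes the members without Trdv4 stood apart from the other members, and in Tcrg-C1 and Trdc the 0-UMI DETCs without Trdv4 did so too in both libraries. Trdc was at 2854 CPM in isotype members without Trdv4 and 4467 in those with it, and at 2621 and 3821 CPM after Skint1 antibody, beside 3019 against 4871 and 3003 against 4048 CPM in 0-UMI DETCs. Tcrg-V5 was at 26.8 CPM in the isotype members without Trdv4 and 70.0 in members with Trdv4, and after Skint1 antibody at 38.8 and 71.3 CPM. Tcrg-C1 was at 822 against 1099 and 780 against 1153 CPM, and was still detected in 52 of 56 and 99 of 109 of these cells. Among 0-UMI DETCs, Tcrg-C1 was at 708 CPM without Trdv4 against 1046 with it (isotype) and at 821 against 1135 (Skint1 antibody), and Tcrg-V5 at 29.4 against 62.1 and 58.4 against 63.4 CPM. In members without Trdv4, Trgv2 stood at 536 CPM (isotype) and 427 CPM (Skint1 antibody), against 417 and 473 CPM in members with it, and Tcrg-C2 at 386 and 486 against 417 and 429 CPM, so for both genes the direction turned between libraries. Of the 17 Tcrg-V7 UMIs in isotype members, 16 were in 11 of the 56 cells without Trdv4. Tcrg-V4 was at 15.3 against 6.13 CPM with isotype and 30.6 against 4.40 CPM with Skint1 antibody, where the 0-UMI DETCs without and with Trdv4 gave 9.81 against 2.25 CPM (isotype) and 3.96 against 4.60 CPM (Skint1 antibody).

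Across the transcriptome, members stood apart from 0-UMI DETCs in few genes. A gene is called higher or lower here when its log2 ratio passed 0.5 in the same direction in both libraries, among the 2850 genes whose level over all DETCs reached 50 CPM, leaving out Trgv2 and Tcrg-C2. This rule of size stands in for a test. It called 0 genes higher (0.0% of genes) and 24 lower (0.842%). With 1 library alone it called 13 higher (0.456%) and 73 lower (2.56%) in the isotype library, and 1 higher (0.0351%) and 48 lower (1.68%) in the Skint1 antibody library. The median log2 ratio was 0.04 in both, and 90% of ratios lay between -0.38 and 0.31 with isotype and between -0.32 and 0.25 with Skint1 antibody. Members were the deeper cells, with medians of 4613 and 4308 UMIs against 4262 and 3890. The number of lower genes moved with this depth, being 16 with 0-UMI DETCs weighted to the depth of members, and 6 with 0-UMI DETCs of at least 5000 UMIs. The latter are deeper than the median member, so that setting turns the depth difference round and does not remove it.

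The genes given as markers of these cells did not reach the rule. Pltp, which encodes a phospholipid transfer protein, was at 122 CPM against 101 in the isotype library (log2 ratio 0.26, 0.02 to 0.50) and at 91.8 against 65.7 in the Skint1 antibody library (0.48, 0.26 to 0.71). In the Skint1 antibody library, Pltp was at 179.6 CPM (144 to 221) in the 109 members without Trdv4, which held 88 of its 233 UMIs, and at 70.8 CPM (59.8 to 83.3) in members with Trdv4, beside 91.1 and 62.4 CPM in 0-UMI DETCs without and with it. In the isotype library the order was the opposite, with Pltp at 99.5 CPM (65.0 to 146) in members without Trdv4 and 127 CPM (107 to 149) in those with it, beside 84.3 and 102 CPM in 0-UMI DETCs. Orm2, an acute-phase plasma protein gene, was at 62.0 against 63.5 CPM (-0.04, -0.38 to 0.29) and at 102 against 82.1 CPM (0.32, 0.11 to 0.53). Stx2, a syntaxin of membrane fusion, was at 91.9 against 66.6 CPM (0.46, 0.18 to 0.74) and at 88.7 against 75.1 CPM (0.24, 0.02 to 0.46). Pltp and Stx2 were higher in members of both libraries by less than the rule asks, and Orm2 in the Skint1 antibody library only. With 0-UMI DETCs of at least 5000 UMIs, Pltp was at 0.12 and 0.17 and Orm2 at -0.35 and 0.00. A UMI of Stx2 was found in 32.7% of isotype members and 24.1% of isotype 0-UMI DETCs. The cells are therefore described by their γ genes alone.

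The genes nearest to being called higher, ranked by their smaller ratio, were named after their values were seen. Lyst, a gene of lysosomal trafficking, led them (log2 ratios 0.40 and 0.38). Copb1 and Synrg, genes of vesicle coats, followed (0.34 and 0.35, and 0.36 and 0.34). Next came Pdia4, Utp3, Btbd7, Timm17b and Gclm, with ratios of 0.31 to 0.44. Themis, a gene of T cell receptor signalling (0.52 and 0.30), ranked below these. Themis was detected in 58.8% of isotype members against 45.6% and in 54.5% of Skint1 antibody members against 45.9%.

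Of the 24 lower genes, the 10 that led when each gene was ranked by the smaller of its ratios in the libraries were Hist1h2bc, Klf4, Ier5l, Dusp1, Sgk1, Gzmb, Nfkbie, Nap1l5, Gla and Gm26802. Hist1h2bc, a histone gene, was at 623 against 1076 CPM with isotype and 588 against 994 with Skint1 antibody. Klf4, a transcription factor, was at 137 against 281 CPM (log2 ratio -1.04, -1.26 to -0.83) and 154 against 252 CPM (-0.71, -0.87 to -0.56). Dusp1, a phosphatase of MAP kinases, was at 584 against 941 and 616 against 959 CPM. Gzmb, a cytotoxic granule protease, had log2 ratios of -0.63 and -0.97, and Nfkbie, an inhibitor of NF-κB, of -0.62 and -0.89. Ratios of the other 5, Ier5l, Sgk1, Nap1l5, Gla and Gm26802, lay between -0.83 and -0.61.

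**Figure D3:**
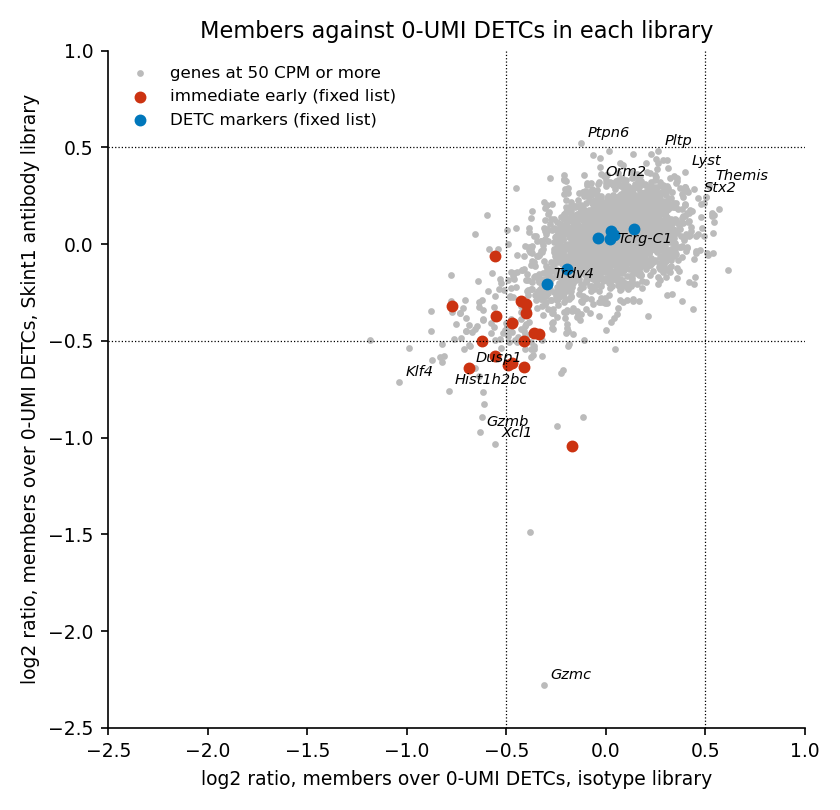
Log2 ratio of CPM in members over 0-UMI DETCs for 2850 genes (grey), isotype library on the x axis and Skint1 antibody library on the y axis, with immediate early genes in red, DETC marker genes in blue, and dotted lines at the rule of 0.5. No gene lies beyond 0.5 in both libraries and 24 lie beyond -0.5 in both; the DETC markers lie between -0.29, for Trdv4, and 0.14.

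Immediate early genes, which stimulated or stressed cells induce within minutes, were lower as a group. Of 20 on the list, 17 were tested, and all 17 had ratios below 0 in both libraries, with medians of -0.47 and -0.46 against 0.04 over all genes. Dusp1, Fosb and Nfkbia were called lower, or 3 of 17, against the 0.842% of all genes. Fosb, a subunit of the AP-1 transcription factor, was at 220 against 323 CPM and 197 against 294 CPM. Nfkbia, an inhibitor of NF-κB, was at 853 against 1313 and 930 against 1317 CPM. Fos was at 2790 against 3918 CPM (-0.49) and 2468 against 3808 (-0.63), just short of the rule in the isotype library. With 0-UMI DETCs of at least 5000 UMIs the medians were -0.31 and -0.22, with 17 and 15 genes below 0, and with 0-UMI DETCs weighted to the members' depth they were -0.41 and -0.42. Among members with 5 or more UMIs of the pair, 77 and 158 cells, the medians were -0.86 and -0.83.

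Per cell, the immediate early genes together had a median of 7668 CPM in isotype members and 13855 in isotype 0-UMI DETCs, and of 6792 and 13554 CPM in the Skint1 antibody library. The ranges overlapped widely, since the third quartile of members was 16365 and 15761 CPM, above the median of the 0-UMI DETCs. Sorting all DETCs of at least 3000 UMIs into quartile groups by this level set the shares side by side at one depth. In the lowest group, 10.2% (8.09 to 12.6) of isotype DETCs had 3 or more of 3000 UMIs from the pair, against 3.03%, 2.34% and 3.58% in the next groups. In the Skint1 antibody library the shares were 13.03% (10.9 to 15.4), 8.14%, 5.24% and 4.57%. The median depth of the groups lay between 3811.5 and 4422.5 UMIs.

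**Figure D4:**
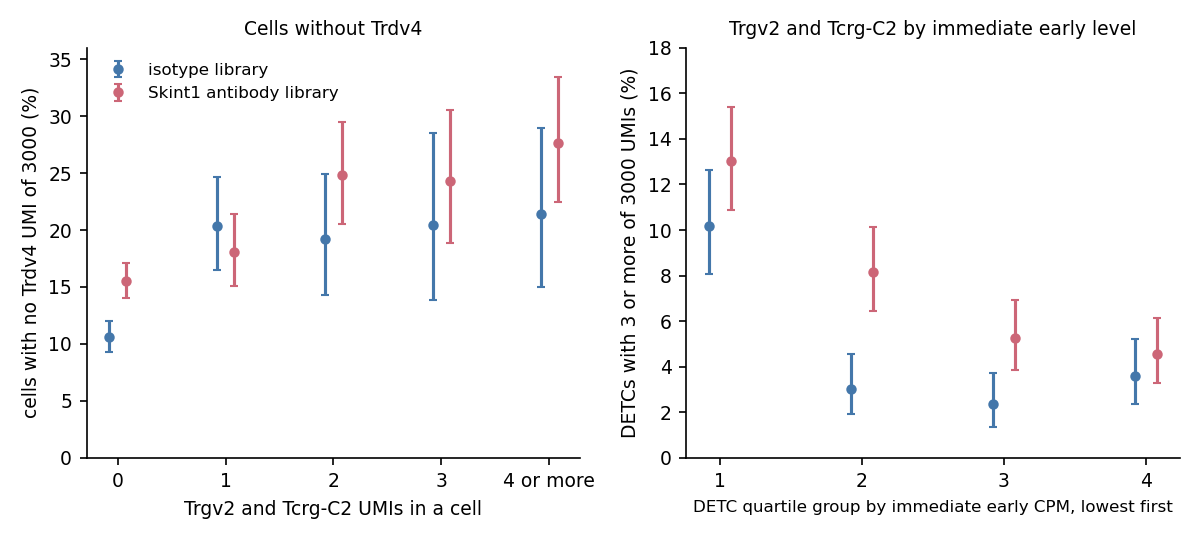
Left, percent of DETCs without a Trdv4 UMI by UMIs of Trgv2 and Tcrg-C2, in cells of at least 3000 UMIs thinned to 3000; right, percent of DETCs with 3 or more Trgv2 and Tcrg-C2 UMIs of 3000, by quartile group of immediate early CPM. Bars are 95% Clopper-Pearson intervals. Isotype DETCs without Trdv4 rise from 10.6% at 0 UMIs to 20.3% at 1, and the lowest immediate early group has the highest shares, 10.2% and 13.03%.

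Effector genes mostly had ratios below 0 in members, though few passed the rule. Of 24 on the list, 11 were tested, of which 10 had ratios below 0 in the isotype library and 9 after Skint1 antibody, with medians of -0.32 and -0.37 against 0.04 over all genes. The rule called 2 of the 11 lower, Gzmb and Xcl1, against 0.842% of all genes. In the isotype library these low levels were not particular to members. There, DETCs with 1 or 2 UMIs of the pair, at the minimum depth of 0-UMI DETCs, had Gzmb at 99.1 and Xcl1 at 184 CPM. Members had 97.6 and 256 CPM. In the Skint1 antibody library such DETCs had 74.1 and 82.2 CPM, above the 48.1 and 62.3 of members. Gzmb was detected in 15.3% of isotype members against 15.7% of 0-UMI DETCs, and in 8.91% against 12.8% with Skint1 antibody. Xcl1, a chemokine that attracts dendritic cells, was at 256 against 377 CPM and 62.3 against 127 CPM, and was detected in 19.0% against 21.4% and in 9.09% against 11.2% of cells. In the Skint1 antibody 0-UMI DETCs 1 cell held 29.7% of its UMIs, and against isotype 0-UMI DETCs of at least 5000 UMIs its ratio was -0.29, short of the rule. Gzmc, another granzyme, had ratios of -0.31 and -2.28 and was uneven between cells, with 52.9% of its UMIs in isotype members in 1 cell, and 25.1% of those in Skint1 antibody 0-UMI DETCs in 1 cell and 78.7% in 10. Areg, a growth factor of the epidermal growth factor family, had ratios of -0.88 and -0.45 and was not called. Ctsw and Prf1, both of cytotoxic granules, were at 0.11 and 0.10 and at -0.11 and 0.07.

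No gene of the other lists was called. The 7 DETC markers lay between -0.29 and 0.14 in both libraries, with Cd3g at 9910 against 9771 CPM and 10018 against 9827 CPM, and medians of 0.02 and 0.03. T cell receptor signalling genes (15 tested) had medians of -0.08 and 0.07, with Fcer1g at 0.02 and 0.07 and Cd247 at -0.04 and 0.14. Ptpn6, a phosphatase that dampens receptor signalling, was named after its values were seen. It was at 147 against 160 CPM with isotype (-0.12) and at 107 against 74.3 CPM with Skint1 antibody (0.52, 0.31 to 0.73), the 1 tested gene higher by over 0.5 in that library apart from the genes of the rule, and was detected in 40.1% against 40.9% and in 32.6% against 23.4% of cells. Skin residency genes (10 tested) had medians of 0.00 and 0.01, with the integrin gene Itgae at 0.00 and 0.04 and Cd69 at -0.25 and -0.29. Costimulatory receptors (7 tested; Cd7 at -0.05 and -0.06), inhibitory receptors (3; Cd244 at 0.00 and 0.01), NK-type receptors (4; Klrd1 at 0.10 and 0.08) and cytokine receptors (7; Il2rg at 0.01 and 0.01) had medians between -0.11 and 0.08. Lineage transcription factors (11 tested) had medians of 0.07 and 0.03, with Id2 at 0.19 and -0.10. Heat shock genes (10 tested) had medians of -0.17 and -0.10, with Hsp90ab1 at -0.09 and -0.16, and MHC class I genes (7 tested) of -0.14 and -0.06, with H2-D1 at -0.08 and -0.12. Syntaxins and their partners (10 tested) had medians of -0.05 and 0.04, with Sytl3 at -0.24 and -0.16. Acute phase and lipid transfer genes (3 tested) had medians of -0.04 and 0.32, with Orm3 at -0.11 and -0.03. DNA replication genes (3 tested) had medians of 0.24 and 0.07, with Pcna at 0.24 and 0.07, Stmn1 at 0.57 and 0.18 and Cenpa at -0.61 and -0.39. No gene of the 10 of recombination and repair reached 50 CPM.

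**Figure D5:**
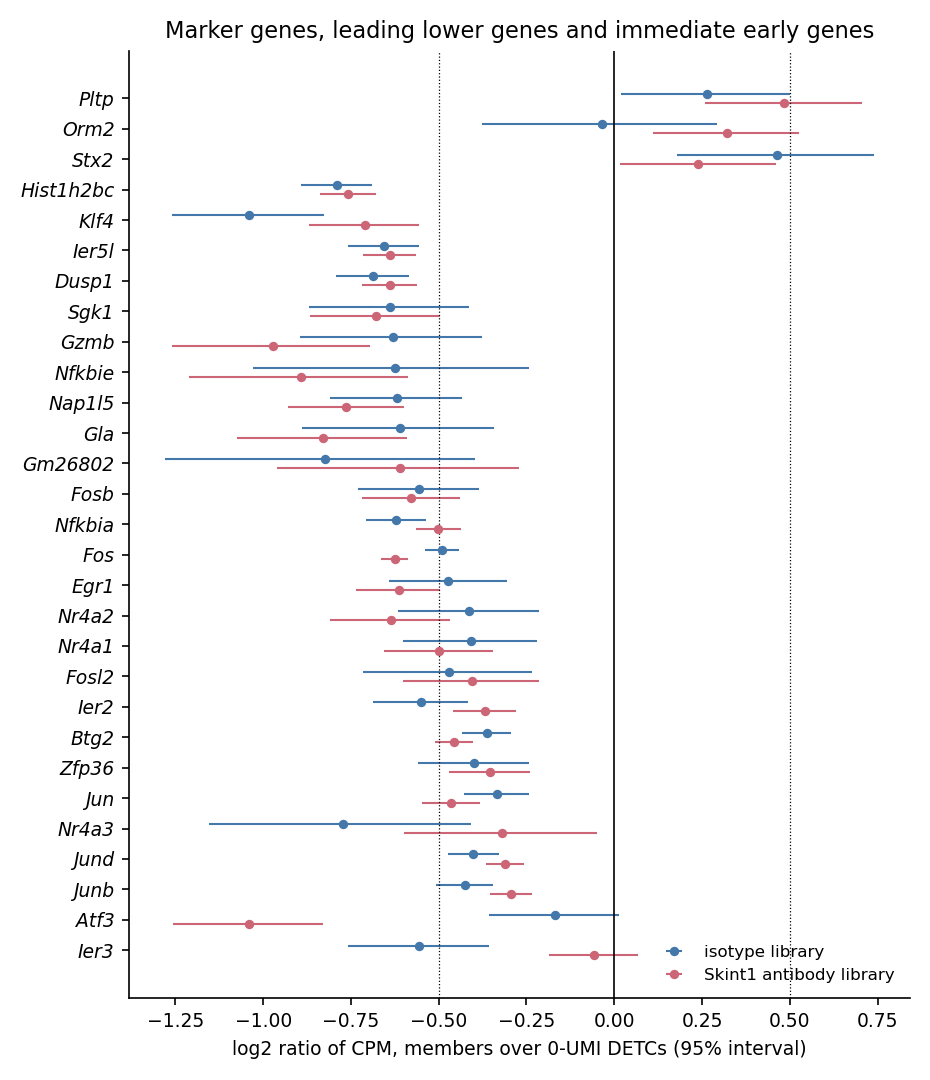
Log2 ratio of CPM in members over 0-UMI DETCs, with 95% intervals, for Pltp, Orm2 and Stx2, the 10 leading lower genes and the immediate early genes, in the isotype library (blue) and the Skint1 antibody library (red). Dotted lines mark the rule of 0.5. Pltp (0.26 and 0.48) and Stx2 (0.46 and 0.24) stay inside the rule, and every immediate early gene lies below 0 in both libraries.

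Markers of other cells were checked in both groups. Keratinocyte markers summed to 55.6 CPM in isotype members against 53.1, and to 64.6 against 56.1 in the Skint1 antibody library. Langerhans and myeloid markers summed to 12.1 against 22.5 and 13.004 against 20.7 CPM. IL-17-type markers summed to 59.1 against 57.7 CPM with isotype and 100 against 57.7 with Skint1 antibody, where all 61 Il17a UMIs of members lay in 1 cell. Of the αβ T cell markers only Trbc1 and Trbc2 reached 50 CPM, at ratios of 0.00 and 0.03 and of 0.02 and 0.07, while Trac, Cd4, Cd8a and Cd8b1 are at 0 by the rule. Innate lymphoid and NK cell markers, which include Areg, summed to 449 against 739 CPM with isotype and 524 against 703 with Skint1 antibody. Of these, 2 were tested, Areg and Gata3, the latter at 0.07 and -0.18. Mitochondrial UMIs were a median of 5.37% of members and of 0-UMI DETCs in the isotype library, and 5.50% and 5.51% in the Skint1 antibody library.

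Between treatments, members differed in few genes by this rule of size. Of 2852 genes, 11 were higher in Skint1 antibody members (0.386%) and 37 lower (1.30%). In 0-UMI DETCs, of 2850 genes, 0 were higher (0.0%) and 18 lower (0.632%). Members were 294 and 561 cells against 2000 and 2112 0-UMI DETCs, and fewer cells widen the ratios by construction. These counts therefore do not show whether members changed more. Within members the log2 ratio of Trgv2 between treatments was 0.08 (-0.06 to 0.22) and that of Tcrg-C2 was 0.10 (-0.05 to 0.25), levels that the rule on UMIs itself constrains. Xcl1 was at 256 CPM in isotype members and 62.3 in Skint1 antibody members, a log2 ratio of -2.04 (-2.32 to -1.77), beside -1.57 (-1.67 to -1.47) in 0-UMI DETCs. The 10 highest cells held 67.2% of the Xcl1 UMIs of isotype members, and with at most 5% mitochondrial UMIs the ratio in members was -0.42, short of the rule. Gzmc was at 221 and 54.0 CPM, a ratio of -2.03, beside -0.06 (-0.14 to 0.02) in 0-UMI DETCs, and 164 of the 310 UMIs in isotype members came from 1 cell. Without the highest cell of each group the Gzmc ratio in members was -1.40, and with at most 5% mitochondrial UMIs it was 0.27. Atf3, a stress-induced transcription factor, was at 193 and 81.6 CPM (-1.24), beside -0.37 in 0-UMI DETCs. It was detected in 20.1% (15.6 to 25.1) and 15.3% (12.4 to 18.6) of members, with overlapping intervals. Slc16a10, an amino acid transporter, and Gzmb had ratios of -1.05 and -1.02, beside -0.67 and -0.68 in 0-UMI DETCs. Over the alternatives run, the ratios of Atf3, Slc16a10 and Gzmb in members stayed past the rule, at -2.09 to -0.79, -2.26 to -0.62 and -1.15 to -0.57. The 10 highest cells held 60.5% of the Atf3 UMIs and 51.8% of the Gzmb UMIs of isotype members. In Skint1 antibody members they held 35.7% and 57.4%.

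The genes higher in Skint1 antibody members were led by Tnfaip2, a gene induced by tumour necrosis factor, at 47.7 and 82.4 CPM (0.79, 0.38 to 1.21), beside 0.10 in 0-UMI DETCs. With at most 5% mitochondrial UMIs the Tnfaip2 ratio was 0.026, which ends the call. Orm2 was at 62.0 and 102 CPM (0.73, 0.37 to 1.09), beside 0.37, and Ier3 at 162 and 255 CPM (0.66), beside 0.16. Lrrc1 had a ratio of 0.65, beside -0.09, but 0.23 with no upper limit on genes. Kif23, a motor of cell division, had one of 0.61 beside 0.20, but -0.07 among members with 5 or more UMIs of the pair and -0.14 with no upper limit on genes. Pltp was lower after Skint1 antibody in both groups, at -0.41 (-0.70 to -0.11) in members and -0.63 (-0.78 to -0.48) in 0-UMI DETCs. Whether the treatment ratios of members and of 0-UMI DETCs differ was not tested.

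The upper limit of 2500 genes left out 312 and 287 DETCs, with median depths of 9347 and 8890 UMIs, of which 77 (24.7%, 20.0 to 29.9) and 106 (36.9%, 31.3 to 42.8) had 3 or more UMIs of the pair. Deeper cells pass a fixed threshold more readily, and no share at a fixed depth was taken for them. Mki67, a gene of dividing cells, was detected in 42.0% and 41.1% of these deep DETCs, against 5.78% and 2.85% of members and 2.95% and 2.79% of 0-UMI DETCs. With them kept, 19 genes were called higher in members, among them Mki67, at 1.64 and 1.57, and Top2a, at 1.37 and 1.501. Of the members, 7 isotype cells (2.38%) and 18 Skint1 antibody cells (3.21%) were among the barcodes scored highest for doublets.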

How the data were processed

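Cells from 2 libraries, 1 per treatment, were measured with the 10x 3′ v3 chemistry. The authors deposited raw counts of UMIs, by gene and barcode, made with Cell Ranger against mm10, the GRCm38 assembly; 6794880 barcodes and 31053 genes are listed per library, with no cell filter. Members, gene lists and the rules of size were chosen with earlier results of these data known, and nothing here is independent support for them. For each group and library, UMIs were added up and scaled to the group's total (Python 3.11.15, pandas 2.3.3, numpy 2.4.6, scipy 1.17.1). Log2 ratios carry no pseudocount. Intervals are exact Poisson for levels, exact conditional binomial for ratios, Clopper-Pearson for shares and Newcombe for differences of shares, at 95%. With 1 library per treatment, and members chosen by their counts, no p-value is given. Shares were compared after thinning cells to 3000 UMIs. The genes named are Trgv2, Tcrg-C2, Pltp, Orm2 and Stx2, the genes of the γ, δ and DETC marker lists, the called or most highly expressed genes of the other lists, the 10 leading genes against 0-UMI DETCs, ranked by the smaller ratio of the libraries, and the 5 in each direction between treatments; any others were chosen after their values were seen. Scrublet (scanpy 1.11.5) was used to score doublets. The threshold it chose marked 5 of 4709 and 7 of 6425 barcodes, so the top 177 and 330 scores were marked, at a rate of 0.8% per 1000 barcodes, and left out only as an alternative. The ratio and thinning steps were tested on simulated data. Alternatives changed the UMI threshold, the depth and weights of 0-UMI DETCs, the filters, the scaling and the doublets.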

Additional observations from a re-analysis of the deposited data

How the results depend on the processing

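The direction of the difference in members' share between libraries was the same under every alternative run, at 4.97 percentage points with 2 or more UMIs of the pair and 1.02 with 5 or more. The number of genes called higher in members, 0 as reported, was 6 against 0-UMI DETCs of at least 5000 UMIs, 8 with members of 5 or more UMIs, 1 with a minimum of 20 CPM, 19 with no upper limit on genes and 5 with at most 5% mitochondrial UMIs. The number called lower, 24 as reported, was 6, 99, 42, 47 and 52 in the same order, 38 with members holding at least 1 UMI of each gene and 38 without the cell with most UMIs of each gene. Between treatments, the 11 genes called higher in members became 113 at 20 CPM, 1 at 100 CPM, 167 with 5 or more UMIs, 135 with at most 5% mitochondrial UMIs and 6 with no upper limit on genes, and the 37 called lower became 179, 11, 191 and 159 under the first 4 of these. The cause was not tested, except that fewer cells or lower counts widen the ratios by construction. Gzmc reversed between treatments, to 0.27, with at most 5% mitochondrial UMIs, and Kif23 to -0.068 with 5 or more UMIs of the pair and -0.14 with no upper limit on genes. Of 670 values of single genes under alternatives, 545 moved by less than their interval and 122 by more. Of the 24 lower genes, Gzmb and Nfkbie (2) were called under every alternative other than the 100 CPM minimum. Gzmb was still detected in 15.3% of isotype members and 15.7% of isotype 0-UMI DETCs, and 10 cells held 51.8% of its UMIs in those members. For the treatment counts, leaving out the cell with most UMIs of each gene was chosen after the data were seen, and gave 12 higher and 28 lower. No paired analysis was possible because each treatment has 1 library, and no replicate could be left out.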
